A study of Mus musculus with 16 samples.

Results

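The first 2 days of a chemical reprogramming course were examined by comparing the DNA methylation of D2 cells with that of the D0 fibroblasts from which they came. D0 were mouse embryonic fibroblasts (MEFs) of 129XOG2 embryos at E13.5, used at passages 1 to 3 and kept in DMEM with fetal bovine serum; in OG2 mice a GFP transgene reports the activity of the pluripotency gene Oct4. D2 were cells of the same strain after 2 days in the reprogramming medium, whose composition the labels do not give. The later groups used below for comparison were D4 to D12, labelled by day, and induced pluripotent stem cells (iPSCs). Strain and culture of these later groups are not described here. Each group had 2 libraries out of 16 in the series. The labels do not say whether the 2 came from separate cultures or embryos. All p-values below therefore rest on a spread between libraries that could be technical. Which cells of a D2 culture had responded is not known, so a partial change in every cell and a full change in some cells cannot be told apart, and no marker of cell identity was measured.

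Methylation was read by reduced representation bisulfite sequencing (RRBS), in which MspI selects fragments around CCGG and bisulfite turns unmethylated cytosine into a base read as thymine. A site was a CpG cytosine on 1 strand of an autosome, listed with at least 10 reads in all 4 libraries. There were 1317604 such sites, 50.8% of the 2595091 autosomal sites listed in any of the 4, and 126361 tiles of 1 kb held at least 3 of them. The median tile held 7 sites, 6 CpGs and 258 reads in a library. The CpGs of a tile were those listed in any of the 16 libraries, with both strands as 1. Their number was not taken from the genome sequence, so it also depends on what RRBS covered. Summed coverage ran from 46142451 reads in D2 replicate 1 to 107834007 in D0 replicate 1. Reads of a tile are summed over its sites, so 1 read counts once at each site it covers. PCR copies cannot be removed either, so read numbers overstate the number of independent molecules.

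In mammalian somatic cells most CpGs outside CpG islands are methylated, and CpG-dense islands, many of them at gene starts, are largely unmethylated. The maintenance enzyme Dnmt1 copies the pattern onto the new strand after replication, Dnmt3a and Dnmt3b set new marks, and Tet enzymes oxidise 5-methylcytosine, which starts its removal. Short CpG-poor stretches of low methylation in an otherwise methylated region are known as a mark of distal regulatory elements. Bisulfite does not separate 5-methylcytosine from 5-hydroxymethylcytosine, the first product of the Tet enzymes, so the level reported here is the sum of both.

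The mean level of the common sites was slightly lower at D2. It was 51.5% and 51.7% in the D0 libraries and 48.8% in both D2 libraries. The group means were 51.6% ± 0.114 (SD, n = 2) and 48.8% ± 0.00485 (SD, n = 2), a difference of -2.76 ± 0.0805 points (SE). Neither D2 library overlapped with D0, and an exact permutation test over the 4 libraries (two-sided) gave 0.333, its lowest possible p. D2 kept 94.7% of the D0 level.

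Fewer sites were highly methylated at D2 and more were nearly unmethylated. The share of sites at 80% or more was 38.7% at D0 and 35.5% at D2, and the share under 20% was 35.1% and 38.0%. Intermediate sites made up 26.2% and 26.5%. Both strands gave nearly the same difference, -2.77 points on the forward and -2.74 on the reverse strand. Among autosomes, the mean tile difference lay between -2.94 and -2.61 points, so each autosome was lower at D2 by a similar amount.

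The share of reads that fell on unmethylated DNA also differed between the groups, and a level computed from pooled reads moves with it. Sites under 20% on the mean of the 4 libraries took 32.8% and 33.4% of the reads at D0 and 36.0% and 35.8% at D2. Methylated reads over all reads gave a difference of -4.64 points. When the levels of D0 replicate 1 were kept and its sites weighted by the coverage of D2 replicates 1 and 2, its own level moved from 55.7% to 53.3% and 53.5%, with no methylation value changed. Weights that were the same in the 4 libraries gave a difference of -2.58 points. Levels that count each site alike are therefore the measure of the global dip here.

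Tiles that were nearly unmethylated read lower at D2 as well. Over the 10967 tiles under 15% in all 4 libraries, the level was 6.06% and 5.95% at D0 and 4.50% and 4.44% at D2. The difference was -1.54 ± 0.0640 points (SE, n = 2 and 2, exact permutation p = 0.333), which left D2 at 74.4% of D0. Such a low level contains true methylation, cytosines that bisulfite failed to convert and read errors, and these cannot be told apart in the deposited tables. The cut-off itself limits how far a member can lie from 0, and the difference was -1.07 points in the 6799 tiles under 10% and -0.462 in the 2017 tiles under 5%. In relative terms these stricter sets were close to the first, with D2 at 75.3% and 79.0% of D0.

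The reading of unmethylated tiles also varied over the 8 groups of the course. Tiles under 15% in each of the 12 libraries outside the comparison, 4817 in number, were chosen with no use of D0 or D2 and read 5.06% ± 0.0655 at D0 and 3.62% ± 0.0967 at D2 (SD, n = 2). The same tiles read 5.17% at D4 and 4.25% at D6, then 4.98% at D8 and 3.78% at D10, then 5.04% at D12, and 4.11% in the iPSCs. The level was thus lowest at D2, followed by D10 within the spread of replicates, was near the D0 reading again at D4, and went up and down between consecutive groups.

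Taking each library's background as a constant rate of false methylated calls reduced the dip and did not remove it. The adjusted level was (level - b)/(1 - b), where b is the mean of the tiles under 15%. The adjusted site mean was 48.4% and 48.6% at D0 and 46.4% in both D2 libraries, a difference of -2.06 ± 0.118 points against -2.76 unadjusted. Outside the background set, 115394 tiles differed by -2.94 points before and -2.46 after the adjustment. The adjustment takes all of the background as false calls and leaves no true methylation in these tiles.

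The start level of a tile set the size of its difference only in part. Tiles were classed by their mean D0 level, and each class is a description over tiles, which are not replicates. The 52792 tiles of 60 to 80% at D0, the largest class, went from 70.7% to 67.7%, a difference of -2.98 ± 0.0999 points (SE over libraries). The 23092 tiles of 80 to 95% went from 85.5% to 82.9%, a difference of -2.57 points. The 23828 tiles of 40 to 60% differed by -2.98 points, and the 8798 tiles of 20 to 40% went from 30.6% to 26.6%, which at -4.01 ± 0.213 points was the lowest value of the classes. The 11898 tiles of 5 to 20% went from 11.03% to 8.28%, a difference of -2.75 points that left 75.03% of the D0 level, beside the 74.4% of the background tiles, with which the class shared 6396 tiles.

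The change that the background alone would give was smaller than the difference in each class from 5% up, and by more in the methylated classes. A shift in false calls at the rate of the low tiles acts on unmethylated molecules only, so it would move tiles of 80 to 95% by -0.237 points, against the -2.57 measured. It would move those of 60 to 80% by -0.479 points, against -2.98, and those of 20 to 40% by -1.13, against -4.01. At 5 to 20% it would give -1.45 of the -2.75 points. These values assume that the rate of the low tiles holds at methylated sites, and that false unmethylated calls did not differ between the groups. Neither was tested.

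Classes at both ends depended on how they were formed. Tiles under 5% at D0 read 2.92% at D0 and 3.65% at D2, a difference of 0.730 points upward. Choosing tiles for a low D0 reading also chooses low D0 errors, and with the class taken from 1 D0 library and the level from the other, the difference was -1.66 and -1.70 points. In the same way, the 1143 tiles of 95% or more gave -3.34 points, but -1.79 and -1.64 when cross-read. The class of 80 to 95% moved less, from -2.57 to -2.14 and -2.05, and 20 to 40% kept the lowest value with -4.004 and -3.67.

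**Figure D1:**
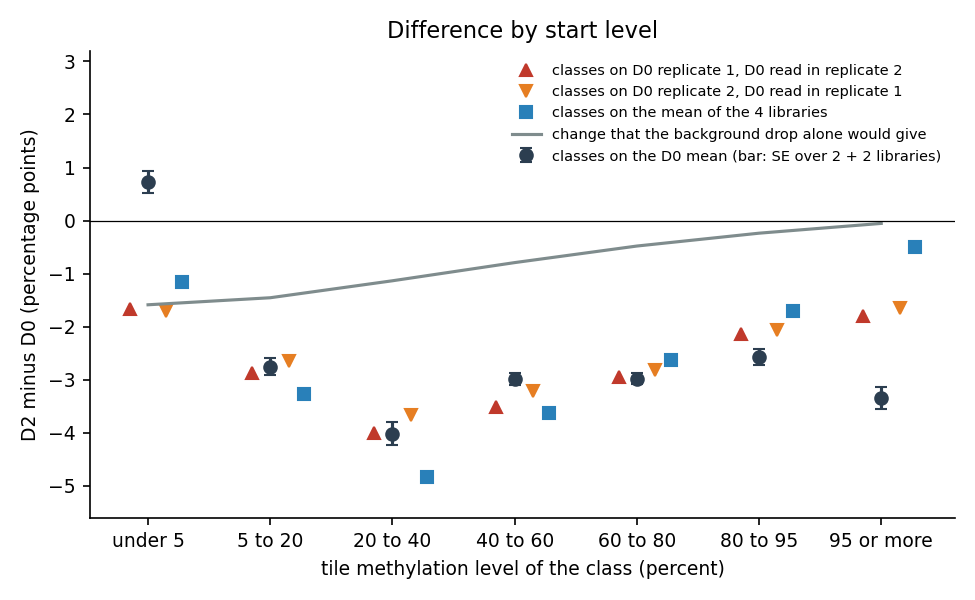
D2 minus D0 in percentage points (vertical axis) for 1-kb tiles in 7 classes of methylation level (horizontal axis, percent), with classes formed in 4 ways and the change that the background drop alone would give as a grey line. Tiles of 20 to 40% lie lowest in all 4 ways, and above 40% all points lie below the grey line.

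The number of CpGs mattered little by itself and more for tiles of intermediate level. The 44706 tiles with 1 to 4 listed CpGs differed by -2.88 points, those with 5 to 9 by -2.87, those with 10 to 19 by -2.62 and the 11019 with 20 or more by -2.75. These similar values stand on different levels. Tiles with 20 or more CpGs went from 26.7% to 24.0% and kept 89.7% of D0, and tiles with 1 to 4 CpGs went from 61.1% to 58.2% and kept 95.3%. With the background taken off, the difference was -1.62 points in the former and -2.35 in the latter.

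In points, the lowest difference was that of tiles of intermediate methylation with many listed CpGs, called dense here. The 1102 tiles of 20 to 40% with 20 or more CpGs read 27.6% and 27.98% at D0 and 20.0% and 19.5% at D2, a difference of -8.03 ± 0.298 points (SE), at which D2 was 71.1% of D0. As a share of D0, the 5007 tiles of 5 to 20% with 20 or more CpGs were lower, at 69.5%. At the same start level the difference was -4.82 points with 10 to 19 CpGs, -3.59 with 5 to 9 and -2.44 with 1 to 4. These classes rest on the choice by D0. Cross-read, the dense tiles gave -5.18 and -4.37 points and those with 1 to 4 CpGs gave -3.33 and -2.92. The classes between were then alike, with -4.16 and -3.97 for 10 to 19 CpGs and -4.17 and -3.94 for 5 to 9. Counting each site of a tile alike changed the dense class from -8.03 to -7.82 points.

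At start levels of 80 to 95% the order by CpG number was the opposite. Tiles of 80 to 95% with 1 to 4 CpGs differed by -3.20 points and those with 20 or more by -1.88. Cross-read values were -2.59 and -2.42 for the former and -1.74 and -1.70 for the latter. Among tiles of 80 to 95%, those with more CpGs thus lay closer to their D0 level, and among tiles of 20 to 40% farther from it on the D0 mean. Tiles of 95% or more showed no such order, with -3.21 points at 1 to 4 CpGs, -3.86 at 10 to 19 and -2.33 in the 31 tiles with 20 or more.

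**Figure D2:**
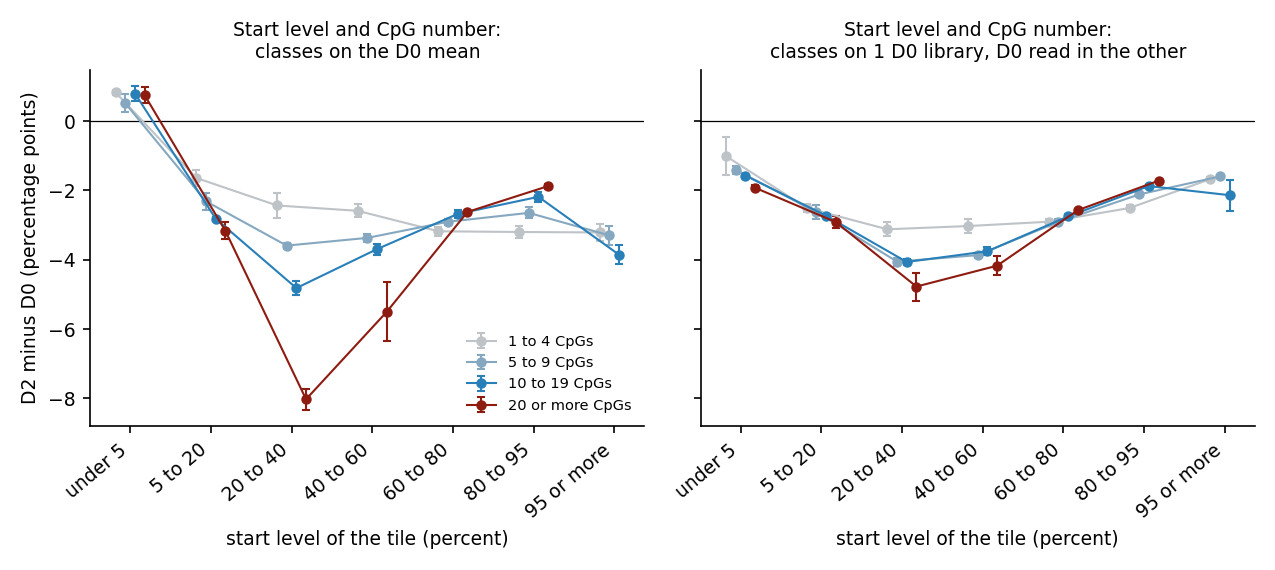
D2 minus D0 in percentage points by start level (horizontal axis, percent) and by number of listed CpGs per 1-kb tile (colours), for cells of at least 100 tiles. On the left, classes are on the D0 mean and bars are SE over 2 and 2 libraries; on the right, classes are on 1 D0 library and D0 is read in the other, with points at the mean of the 2 readings and bars from one to the other. Tiles of 20 to 40% with 20 or more CpGs lie lowest on both sides.

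The dense intermediate tiles read near their D0 level again at D4. Over the sites with at least 10 reads in all 16 libraries, 736 such tiles read 27.5% and 28.3% at D0. They read 21.2% and 21.1% at D2, and 27.5% and 26.8% at D4. The class was chosen on D0, which can bias its D0 reading, so a return was not tested. All 92383 tiles together read 55.1% at D2 and 56.4% at D4. The 736 tiles were at 21.998% at D6 and at 20.7% at D8. They reached 15.1% at D10 and 17.7% at D12, and were at 20.8% in the iPSCs. This sequence has the same ups and downs from D0 to D6 as the level of the nearly unmethylated tiles, which read 5.06%, 3.62%, 5.17% and 4.25% in those groups, and a part of the one in the other was not tested.

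Single tiles showed a wide spread around the small mean. The median tile difference was -2.29 points and the SD over tiles 5.61, with 5th and 95th percentiles of -12.03 and 4.95. At D2, 92218 tiles (73.0%) were lower and 34114 (27.0%) were higher. Both D2 libraries lay below both D0 libraries in 46929 tiles, 37.1% of those measured, and above both in 9102 tiles, 7.20%. Larger differences were more one-sided. Group means differed by at least 10 points downward in 10084 tiles (7.98%) and upward in 1221 (0.966%), and by at least 20 points downward in 1426 (1.13%) and upward in 77 (0.0609%).

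Replicates of 1 group differed by 10 points or more about as often in each direction. Between the D0 libraries, 5412 tiles were lower by that much and 5997 higher, and between the D2 libraries 8112 and 8233. D2 replicate 1 against D0 replicate 1 gave 15211 lower and 3858 higher tiles, and the second pair gave 16088 and 3784. The lower side therefore exceeded the replicate spread and the higher side did not. The median tile differed by -2.24 and -2.35 points in the pairs of D2 against D0, and by 0.142 and 0 between the D0 and the D2 replicates. A shift of all tiles by itself raises the lower count and reduces the higher one. These counts therefore cannot show whether some tiles gained methylation.

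**Figure D3:**
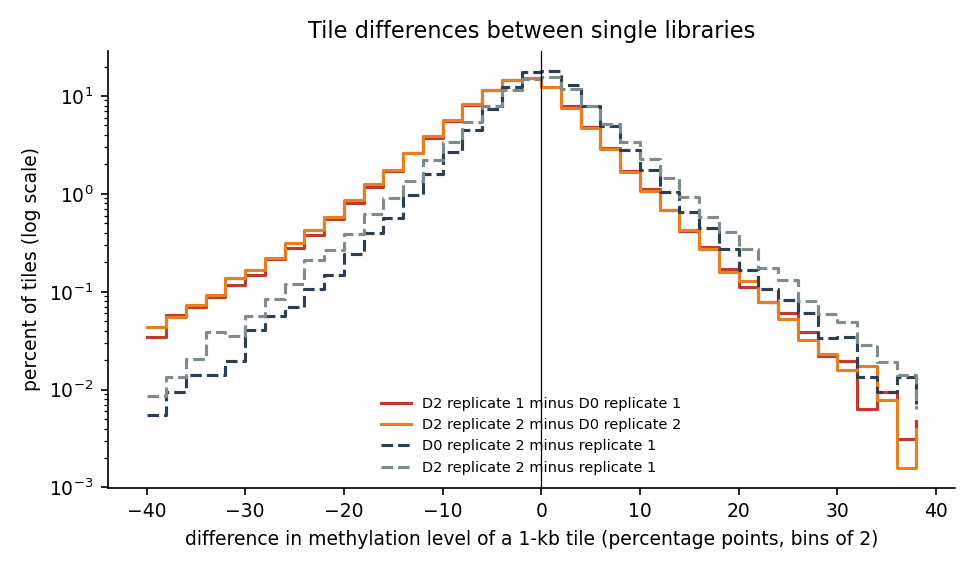
Percent of 126361 tiles (log scale) by difference in methylation level between 2 single libraries (percentage points, bins of 2), for D2 against D0 (solid) and for replicates of 1 group (dashed). The solid lines lie above the dashed ones from -40 to -2 points, and below them from 0 to 32 points.

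No single tile passed the test in the 4 libraries. With edgeR's quasi-likelihood test on methylated and unmethylated read counts, Benjamini-Hochberg adjustment over all tiles and a minimum difference of 10 points, 0 tiles were called lower and 0 higher (0% of tiles in either direction), and the smallest adjusted p was 0.154. At an unadjusted p under 0.05 in the edgeR test there were 11969 lower and 1189 higher tiles of the 126361 tested. The limma test of log odds called 0 as well, with 13041 and 1284 of the 126361 at that unadjusted level. A fit with 2 libraries a group has 2 residual degrees of freedom.

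Large decreases were seen on average also in the replicate that had not been used to find them, and large increases were not, apart from a minority of tiles. The 2623 tiles lower by 20 points or more between the libraries numbered 1 were read in those numbered 2, where they went from 51.4% to 39.2%, a difference of -12.3 points. Of these, 52.6% were lower by at least 10 points there, against 12.7% of all tiles. In the reverse reading, 2883 tiles gave -11.2 points in the libraries numbered 1, and 49.6% were lower by at least 10 points against 12.04% of all tiles. The 466 and 478 tiles higher by 20 points or more read -2.67 and -2.63 points in the other replicate, near the mean of all tiles. Of these, 13.9% and 14.4% were higher by at least 10 points there, against 2.99% and 3.05% of all tiles, and 22 were higher by 20 points or more in both replicates.

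Fitting the 16 libraries together, which shares the estimate of spread across the course, called 46 tiles lower and 0 higher of 92383 (0.0498% lower) with edgeR at the same thresholds. These calls were lost, to 0 of 92383, when any 1 of the 4 D0 and D2 libraries was left out, so each library was needed. As levels, the 46 tiles read 58.5% and 57.4% at D0 and 19.7% and 19.2% at D2, with single differences from -63.8 to -11.2 points. They held a median of 6 CpGs, as did tiles in general.

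In the libraries that the contrast did not use, the 46 tiles stayed low and were methylated in iPSCs. They read 25.0% and 25.3% at D4, between 13.3% and 15.99% in the groups from D6 to D12, and 62.8% and 60.9% in iPSCs. All 92383 tiles together read 57.8% at D0, 55.1% at D2, 56.4% at D4 and 47.8% at D6, and came down to 17.7% only at D12, with 55.1% in iPSCs. The 46 tiles were therefore at D2 near the level that the average tile had at the last day of the course. Values at D4 and later share no library with D0 or D2, although the later libraries entered the estimate of spread that selected the tiles.

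The wider set of large decreases followed the same course. The 885 tiles lower by 20 points or more read 55.7% at D0, 27.9% at D2, 32.4% at D4, 23.2% at D6, 15.2% at D12 and 57.9% in iPSCs. D4 thus stayed closer to D2 than to D0. Tiles lower by 10 to 20 points, 5458 in number, read 55.2%, 42.1% and 47.3% at D0, D2 and D4. Their choice on D2 minus D0 by itself favours a move back at D4. The 616 tiles higher by 10 points or more moved back too, with 38.3%, 51.4% and 46.2%. Whether methylation was regained was not tested. When the tiles were chosen in the libraries numbered 1, the libraries numbered 2 gave 51.7% at D0, 37.5% at D2 and 39.5% at D4, so D4 stayed near D2 also where the choice did not bias the reading.

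The difference around the large decreases was followed in the tiles nearby. Around the 1426 tiles lower by 20 points or more, which themselves differed by -27.3 points, measured tiles directly next to them differed by -9.37 points (557 tile pairs). At a distance of 2 kb the difference was -3.25 points (312 pairs) and at 5 kb -3.36 points, near the -2.76 and -2.78 around all tiles. A neighbour lower by at least 10 points was found for 38.7% of the 504 tiles with a measured neighbour, against 9.20% of all 44021. The centre tiles were chosen for their drop, and RRBS leaves many neighbours unmeasured, so these values give no width of single cases. Neighbours that were themselves among the 1426 were kept, and a read can cover sites on both sides of a tile border. The value next to the centre tiles is therefore not independent of their choice.

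These tiles were not marked by their CpG number and started from intermediate levels. Of the 1426 tiles, 33.3% held 1 to 4 CpGs and 41.1% held 5 to 9, against 35.4% and 36.9% of all tiles. Their median D0 level was 56.0% against 66.3%, and 37.1% of them started between 40 and 60%, a class that held 18.9% of all tiles. A tile under 20% at D0 cannot drop by 20 points, so the low classes could not contribute. Counting each site alike, the 1426 tiles differed by -26.4 points.

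**Figure D4:**
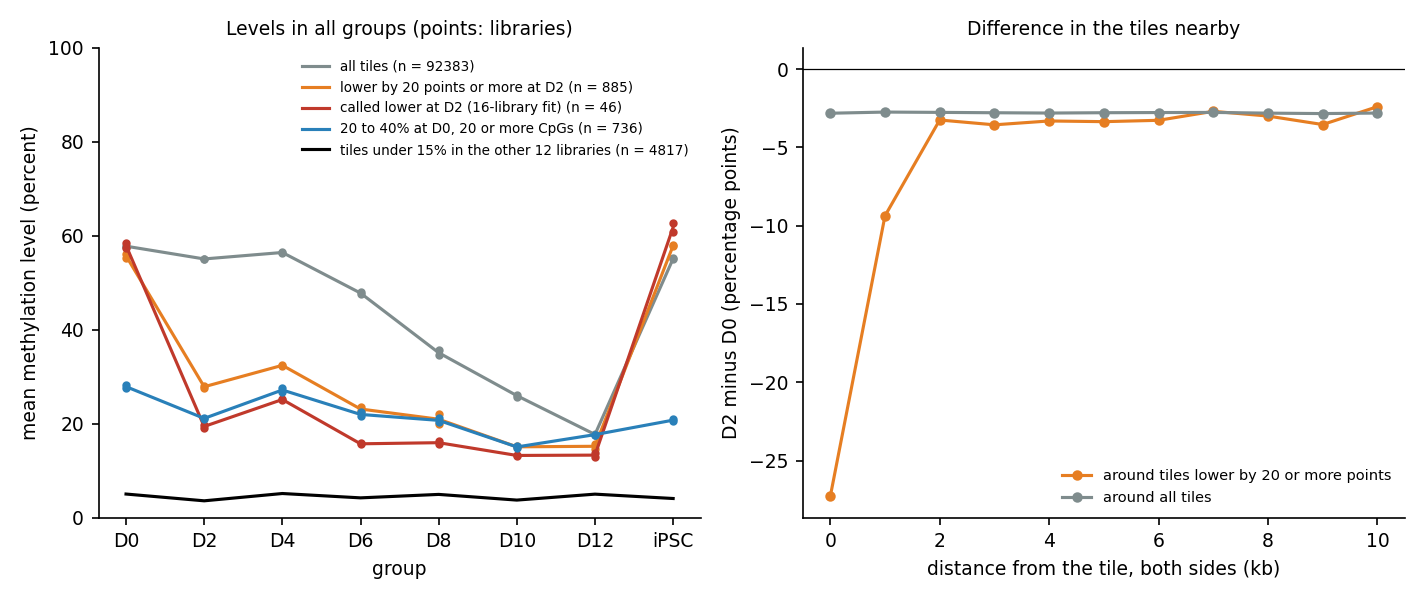
Left, mean methylation level (percent) of groups of 1-kb tiles at D0, at D2 and in the later groups, with points for the 2 libraries of a group where drawn; the 46 and the 885 tiles drop at D2 and stay low to D12, while the average tile comes down after D4. Right, D2 minus D0 in percentage points (vertical axis) at 0 to 10 kb from tiles lower by 20 points or more and from all tiles; the difference is back near the mean of all tiles at 2 kb.

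The tiles with the widest gap between the groups are given next as a description. They were ranked by the distance between the lowest D0 and the highest D2 library (or the reverse) among tiles with at least 5 sites and 50 reads in every library. Positions are on GRCm39, counted from 1, and the genes there were not looked up, since no annotation of that build was used here. On chromosome 9, the tile from 63651001 to 63652000 (11 sites) read 80.2% and 78.7% at D0 and 17.2% and 7.10% at D2. It was lower by more than 60 points in every pairing of libraries and was not measured in all of the later libraries.

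A tile on chromosome 4, from 150041001 to 150042000, read 79.5% and 77.6% at D0 and 12.6% and 16.9% at D2, on 6 sites and at least 175 reads a library. It stayed at 13.8% at D4, reached 0.645% at D12 and read 70.1% in iPSCs. On chromosome 5, the tile from 114881001 to 114882000 read 72.2% and 71.5% at D0 and 10.0% and 11.8% at D2, on 10 sites and at least 339 reads. Its later levels were 20.7% at D4, 11.2% at D12 and 75.8% in iPSCs. Both tiles were thus low from D2 to D12 and methylated in D0 and in iPSCs.

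A further tile on chromosome 5, from 136025001 to 136026000, read 75.6% and 71.6% at D0 and 14.1% and 9.80% at D2, and over the 7 sites measured in all 16 libraries was at 15.5% at D4 and 76.7% in iPSCs. The fifth, on chromosome 6 from 127949001 to 127950000, read 80.5% and 67.7% at D0 and 12.3% and 11.4% at D2. Adjusted p-values of the 5 tiles in the edgeR test of the 4 libraries lay at 0.154 to 0.165. In the fit of 16 libraries, the tiles at 150041001 on chromosome 4 and 114881001 on chromosome 5 were among the 46 called, with edgeR adjusted p-values of 0.0246 and 0.00355.

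The other members of the 5 largest differences among those 46 behaved alike; they were picked by size after the values were seen, and their levels are over the sites measured in all 16 libraries. The tile from 22207001 to 22208000 on chromosome 16 read 91.1% and 75.4% at D0, 17.2% and 22.6% at D2 and 66.7% in iPSCs. The tile from 71419001 to 71420000 on chromosome 2 read 75.9% and 68.7% at D0, 14.1% and 9.42% at D2 and 80.9% in iPSCs. The tile from 32882001 to 32883000 on chromosome 19 read 71.8% and 66.7% at D0, 14.1% and 10.6% at D2 and 79.1% in iPSCs. All 3 were under 25% in each group from D4 to D12.

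Tiles of 80% or more at D0 were ranked in the same way, over the sites of the 4 libraries. The tile from 80211001 to 80212000 on chromosome 12 read 80.4% and 81.6% at D0 and 22.7% and 30.6% at D2. The tile from 77074001 to 77075000 on chromosome 2 read 88.8% and 91.1% at D0 and 44.4% and 38.1% at D2, and over the 5 sites measured in all 16 libraries was at 72.7% at D4 and at 92.0% in iPSCs. The tile from 86481001 to 86482000 on chromosome 11 read 80.4% and 79.6% at D0 and 33.2% and 39.6% at D2. Over 7 of its 14 sites, it was at 51.6% at D4, 2.90% at D8 and 41.9% in iPSCs. The latter pair read closer to D0 at D4 than at D2, with D4 on part of the sites and D0 and D2 on all.

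Among tiles of 20 or more CpGs, 1 of the 3 widest gaps had uneven D2 replicates. The tile from 32043001 to 32044000 on chromosome 18 read 64.4% and 54.3% at D0 and 0% and 20.4% at D2. The former was 0 of 235 reads summed over 16 sites, which would allow up to 1.28% if all were independent. Since 1 read counts at each site it covers, the true limit is higher. The tile from 64309001 to 64310000 on chromosome 13 read 41.5% and 32.0% at D0 and 0% in both D2 libraries. There, 0 of 72 and 0 of 74 summed reads would allow up to 4.17% and 4.05% if independent, and more otherwise. The tile from 5985001 to 5986000 on chromosome 17 read 36.6% and 35.0% at D0, 6.33% and 3.60% at D2 and 39.5% at D4. It was thus near its D0 level at D4, and read 16.4% in iPSCs.

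The widest gaps upward were smaller, with D2 replicates far apart in some tiles and close in others. The tile from 28024001 to 28025000 on chromosome 15 read 7.39% and 5.30% at D0 and 29.8% and 43.3% at D2. The tile from 24985001 to 24986000 on chromosome 13 read 0% in both D0 libraries and 20.4% and 43.4% at D2. Its D0 readings were 0 of 123 and 0 of 174 summed reads, which would allow up to 2.44% and 1.72% if independent, and more otherwise. The tile from 103256001 to 103257000 on chromosome 9 read 25.9% and 25.1% at D0 and 55.4% and 44.4% at D2. The tile from 25460001 to 25461000 on chromosome 14 read 6.73% and 0% at D0 and 25.0% and 48.2% at D2. Its 0% was 0 of 253 summed reads, which would allow up to 1.19% if independent, and more otherwise. The tile from 102594001 to 102595000 on chromosome 15 read 32.7% and 18.8% at D0 and 50.8% and 54.5% at D2. Outside these 5, a dense tile from 32766001 to 32767000 on chromosome 10 read 6.49% and 8.82% at D0 and 29.5% and 26.7% at D2 (edgeR adjusted p = 0.184). In the 3 upward tiles of 80% or more at D0 the D2 replicates lay within 2 points. None of the 5 widest upward gaps had sites in all 16 libraries, and their edgeR adjusted p-values were 0.213 to 0.414.

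On the scale of 1 Mb, where counting error is small, the dip was seen across the autosomes. Of 2401 windows with at least 50 common sites, edgeR's quasi-likelihood test on summed reads called 1837 lower at D2 (76.5%) and 3 higher (0.125%) at an adjusted p under 0.05. The median difference of summed reads was -4.05 points, above the dip of the sites. Window means that count each site alike had a median of -2.70 points, and 2392 windows (99.6%) were lower. Both D2 libraries lay below both D0 libraries in 2285 windows, 95.2%, and above in 1, 0.0416%.

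Differences between windows in summed reads followed where the reads fell. Across windows, which share their 4 libraries, the difference of summed reads had a Pearson r of -0.883 with the change in the share of reads on sites under 20%, and the difference of site means had an r of 0.0457. Of the 3 windows with the largest decrease in summed reads, the one from 87000001 to 88000000 on chromosome 15 differed by -13.6 points and by -4.53 in site means, and the one from 106000001 to 107000000 on chromosome 7 by -12.5 and -6.08. Both site means lay under the 5th percentile of windows, -4.36. The third, from 78000001 to 79000000 on chromosome 4, differed by -11.6 points in summed reads and by -1.29 in site means, and its share of reads on low sites was 38.9% at D0 and 51.7% at D2. The window from 95000001 to 96000000 on chromosome 12 differed by 4.58 points in summed reads and by -1.81 in site means. Extreme windows in summed reads were thus extreme in site means in some cases and not in others.

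Of 2401 windows, 1578 were called lower both in summed reads and with each site drawn down to 10 reads in every library. In these thinned reads, an alternative chosen after the link to read share was seen, edgeR called 1853 windows lower (77.2%) and 0 higher. Without D0 replicate 2 the number was 1105, and without any other library it was between 1282 and 1397. Tested against the median window instead of against 0, the thinned reads gave 0 windows lower and 0 higher with edgeR. At an unadjusted p under 0.05 in that test there were 115 and 110 of the 2401. The summed reads, tested in the same way, gave 60 lower and 31 higher. Over windows, the site mean difference of the groups, each a mean of 2 libraries, had an SD of 0.963 points. Single replicates differed with an SD of 1.10 points at D0 and 1.13 at D2. Averaging 2 libraries lowers such a spread, so the former value cannot be set directly against the latter. In the thinned reads, where sites count alike, no window was called apart from the common shift with 2 libraries a group.

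**Figure D5:**
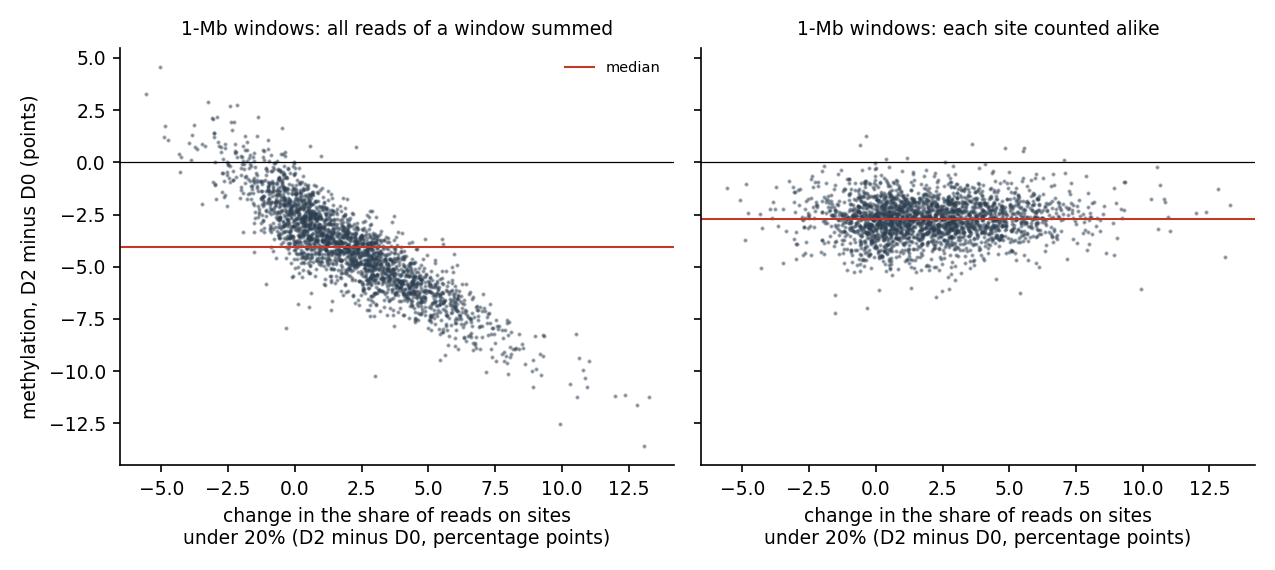
D2 minus D0 methylation of 2401 windows of 1 Mb (percentage points) against the change in their share of reads on sites under 20% (percentage points), from summed reads on the left and with each site counted alike on the right; red lines are medians. The slope on the left (r = -0.883) is not seen on the right (r = 0.0457), where nearly all windows lie below 0.

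The lowest and highest windows by site means lay on chromosomes 3 and 11. The window from 60000001 to 61000000 on chromosome 3 (141 sites) had site means of 53.1% and 55.6% at D0 and 46.8% and 47.5% at D2, a difference of -7.20 points. On chromosome 17, the window from 40000001 to 41000000 (464 sites) read 43.5% in both D0 libraries and 37.1% and 37.0% at D2, a difference of -6.46 points. The window from 26000001 to 27000000 on chromosome 11 (130 sites) was the highest, with a difference of 1.26 points, and its D2 libraries read 54.1% and 58.9%, on either side of D0 at 55.1% and 55.4%. In the thinned reads the first pair of windows had edgeR adjusted p-values of 0.000899 and 0.000213 against no difference, and the last had 0.234.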

How the data were processed

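Per the labels' protocols, DNA was cut with MspI and bisulfite-converted, and libraries had 15 PCR cycles and reads of 150 bp. The submitters' processing notes name fastp 0.20.1, Bismark 0.23.0, Bowtie2, methylKit and the build GRCm39. Trimming of filled-in fragment ends, duplicate handling and conversion rates: not given in the sources used here. The authors' deposited tables give, per the file headers, a count of reads (coverage) and the percent of C and T reads at each CpG cytosine, with no site under 10 reads. Methylated reads were coverage times percent, rounded, and at 0 sites did the product depart from a whole number by more than an error of 0.005 points in the printed percent gives.

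D0 and D2 libraries were grouped by their labels. Sites with at least 10 reads in all 4 libraries and on chromosomes 1 to 19 were kept and put into 1-kb tiles (at least 3 sites) and 1-Mb windows (at least 50 sites). Tile levels are methylated over all reads, and global and window means count sites alike unless stated. Tests used edgeR 4.0.16 (R 4.3.3) quasi-likelihood with an effect per library, a methylation coefficient per group, a common dispersion and Benjamini-Hochberg adjustment, limma 3.58.1 on log2((M + 1)/(U + 1)) of methylated (M) and unmethylated (U) reads as an alternative, and exact permutation tests for single means. The test scripts were tested on simulated data. Named tiles were the 5 with the widest gap between groups in each direction (3 among tiles of 80% or more and of 20 or more CpGs), and named windows were among the 3 at each end. The tile set, the classes and these rules were chosen with earlier results of these data known. Gene starts, gene lists and sequences were not analysed here, since no genome or annotation of GRCm39 was at hand.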

Additional observations from a re-analysis of the deposited data

How the results depend on the processing

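The global difference kept its sign in every alternative run. It was -2.50 points with a coverage of at least 20, -2.59 over sites in all 16 libraries, -2.91 with strands merged, -4.64 from pooled reads, -2.06 with the background taken off and -2.58 with equal weights in the 4 libraries, and lay between -2.84 and -2.68 without single libraries. The background difference was -1.07 under 10%, -0.462 under 5%, -1.44 in tiles chosen in the other 12 libraries, -1.38 with a coverage of at least 20, and between -1.66 (without D0 replicate 2) and -1.50 without single libraries. Tiles under 5% at D0 reversed to -1.66, -1.70 and -1.16 points when classed on D0 replicate 1, D0 replicate 2 or the 4 libraries.

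Calls of single tiles were 46 lower and 0 higher in the fit of 16 libraries, which tested 92383 tiles, and 0 in every other fit run. Windows called lower were 489 of 501 at 5 Mb, 60 when centred on the median log odds difference, 0 when thinned and centred, 1618 to 1714 without single libraries and 1105 to 1397 in the thinned reads without single libraries. Windows called higher were 5 with a coverage of at least 20, 0 at 5 Mb, 31 centred, 0 thinned, 0 thinned and centred, 2 to 5 without single libraries, and 0 or 1 in the thinned reads without single libraries. Apart from what fewer tested units give, the cause of these shifts was not tested.

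Whether libraries with the same replicate number share an origin is not given in the labels. Same-numbered deviations from the group means had a correlation of -0.0102 across tiles. With the replicate as a block, the global difference was -2.76 points and the background difference -1.54, 0 tiles were called, and 1850 windows were lower and 3 higher. Tests at gene starts were not run. With a median of 258 reads in a tile and 2 libraries a group, even large differences of single tiles were not called in the 4 libraries. The chromosome 9 tile from 63651001, at -67.3 points, had an edgeR adjusted p of 0.165. The 0 calls therefore do not show that single tiles were unchanged.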

Other observations

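The sex chromosomes, left out above, were lower at D2 as well. On X, 28920 common sites read 60.4% and 60.6% at D0 and 58.3% and 58.0% at D2, a difference of -2.33 ± 0.136 points (SE, n = 2 and 2). On Y, 2260 sites read 74.4% and 74.1% at D0 and 70.8% and 71.0% at D2, a difference of -3.32 ± 0.212 points. Neither D2 library overlapped with D0 on either chromosome.

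The size of the global difference varied with the depth of the sites. Sites whose lowest coverage was 10 to 14 reads differed by -3.15 points, those of 20 to 29 reads by -2.58 and those of 50 or more by -2.43. The deepest sites also had the highest D0 level, 61.1% against 51.2% in the shallowest class.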
